A study of Homo sapiens with 9 samples.

Results

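The genes described here are 45 genes of DNA replication and mitosis, 27 of replication and 18 of mitosis, taken by gene symbol from the 42717 genes of the count table. They were measured by RNA-seq in the cell lines S2-007, S2-020 and S2-028, all derived from the human pancreatic ductal adenocarcinoma (PDAC) line SUIT-2, with 3 libraries per line and 9 in all. The study describes maspin, a serine protease inhibitor, as both nuclear and cytoplasmic (panMaspin) in S2-007, as cytoplasmic only (cytMaspin) in S2-028, and as weak in S2-020. All libraries came from cells grown in DMEM with 10% inactivated fetal bovine serum, and the labels name no treatment, vector or edited allele. Each line is a single subline, and the labels do not say whether its 3 libraries came from separate cultures, so p-values measure only the spread between these libraries. Setting S2-028 against S2-007 compares lines that differ in maspin localization, which cannot be told apart here from other differences between the sublines. S2-020 was compared with S2-007 and with S2-028 in the same way. The 3 comparisons share their libraries with one another.

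Total counts lay between 60328748 and 86253923 per library. Levels are given as TMM-normalized CPM, which are counts scaled to the size of the library, and differences as log2 fold changes with their standard error (SE). A gene was called a differentially expressed gene (DEG) where edgeR's quasi-likelihood test gave an adjusted p (Benjamini-Hochberg) under 0.05 and the lines differed 1.5-fold or more, which is the fold threshold named throughout. The ductal epithelial markers KRT7, KRT8, KRT18, KRT19 and EPCAM were detected in every library, with a summed level of 9486 to 10025 CPM in S2-007, 4305 to 5424 CPM in S2-020 and 15046 to 17666 CPM in S2-028. Markers of acinar, islet, fibroblast, leukocyte and endothelial cells summed to at most 9.84 CPM per list in any library. The part of the keratin difference in the results was not tested. In these bulk libraries, fewer cells in a phase of the cell cycle and less RNA per cell cannot be told apart.

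Before S phase, the origin recognition complex (ORC), CDC6 and CDT1 load the MCM2-7 helicase onto origins, a step called licensing. Firing then adds CDC45 and the GINS complex to the helicase with the help of MCM10, and polymerases, the sliding clamp PCNA and its loader replication factor C (RFC) carry out synthesis. E2F transcription factors, which RB1 holds in check, drive many of these genes at the start of S phase. Mitosis genes peak later, in G2 and M phase, and many are driven by B-MYB and FOXM1 together with the MuvB complex, which binds the CHR element of their promoters. Because both groups are transcribed mainly in dividing cells, they are widely used to describe proliferation in tumours.

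The promoters of 8 members that were DEGs are shown first, as examples of the letters named here, and were chosen because they carry them. Of the other DEGs with a promoter, E2F2 and GINS2 hold an E2F motif. TK1, MCM10, RFC2 and RFC4 hold no exact match to the E2F letters, and CCNA2 and KIF20A none to the CHR letters. Promoter sequences of 300 bases, from 250 before to 50 after the annotated start of the gene (RefSeq, GRCh38.p14), were found for 39 of the 45 members. AURKA, BIRC5, GINS4, MCM4, MCM5 and TTK had none. The stretches printed run from 130 bases before the start to 20 from it on, 150 bases each, 5′ to 3′ on the plus strand. Capitals mark an E2F motif (TTTCCCGC, TTTCGCGC, TTTGCCGC or TTTGGCGC), a CHR motif (TTTGAA) or a CCAAT box (CCAAT), each on either strand. Only these exact letters were searched, so a site with variant letters counts as absent. The first 5 genes act in replication and the last 3 in mitosis.
MCM2, chr3:127598281-127598430: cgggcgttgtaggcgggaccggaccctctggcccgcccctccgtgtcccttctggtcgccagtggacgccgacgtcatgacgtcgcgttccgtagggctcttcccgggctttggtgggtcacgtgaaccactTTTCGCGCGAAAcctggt
CDC6, chr17:40287749-40287898: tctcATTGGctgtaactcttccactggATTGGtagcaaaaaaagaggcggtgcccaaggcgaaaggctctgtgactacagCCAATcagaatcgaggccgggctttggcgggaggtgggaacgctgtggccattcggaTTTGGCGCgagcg
CDT1, chr16:88803659-88803808: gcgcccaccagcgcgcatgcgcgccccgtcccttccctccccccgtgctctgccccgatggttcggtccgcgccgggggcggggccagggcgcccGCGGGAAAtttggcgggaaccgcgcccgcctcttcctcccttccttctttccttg
GINS3, chr16:58392341-58392490: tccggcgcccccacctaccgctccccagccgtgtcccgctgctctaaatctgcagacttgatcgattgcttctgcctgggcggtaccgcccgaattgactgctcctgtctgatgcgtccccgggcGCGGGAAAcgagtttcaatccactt
TYMS, chr18:657523-657672: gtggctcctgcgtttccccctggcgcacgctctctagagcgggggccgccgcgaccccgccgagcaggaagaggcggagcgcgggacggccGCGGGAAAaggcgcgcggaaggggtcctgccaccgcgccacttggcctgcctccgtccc
CDC20, chr1:43358851-43359000: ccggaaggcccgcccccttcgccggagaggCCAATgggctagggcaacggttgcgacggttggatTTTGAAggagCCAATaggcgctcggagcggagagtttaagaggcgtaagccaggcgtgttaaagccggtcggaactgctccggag
PLK1, chr16:23678759-23678908: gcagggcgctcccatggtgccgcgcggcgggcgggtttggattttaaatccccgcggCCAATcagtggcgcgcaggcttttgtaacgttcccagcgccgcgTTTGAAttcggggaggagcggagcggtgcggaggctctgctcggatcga
CENPF, chr1:214603065-214603214: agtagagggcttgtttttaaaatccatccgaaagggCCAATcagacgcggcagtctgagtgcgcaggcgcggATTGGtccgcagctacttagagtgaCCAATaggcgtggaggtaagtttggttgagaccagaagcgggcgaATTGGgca

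In these stretches MCM2 holds 2 E2F motifs that overlap on opposite strands, while CDC6, CDT1, GINS3 and TYMS hold 1 each. CDC20 and PLK1 hold a CHR motif near a CCAAT box, and CENPF holds 4 CCAAT boxes, its CHR motif lying further on in the 300-base window. Over the whole window, an E2F motif was present in 16 of 24 replication members (66.7%) and in 1 of 15 mitosis members (6.67%), which was CDK1, against 3.99% of the 27305 genes with a promoter. The CHR motif was present in 9 of 15 mitosis members (60.0%) and in none of the 24 replication members, against 18.2% of all genes. A CCAAT box was found in 13 of 15 mitosis members (86.7%), in 15 of 24 replication members (62.5%) and in 39.7% of all genes. CHR and CCAAT stood together in 8 of 15 mitosis members (53.3%) and in 8.37% of all genes. These matches describe letters in a window and do not show that a factor binds there.

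**Figure D1:**
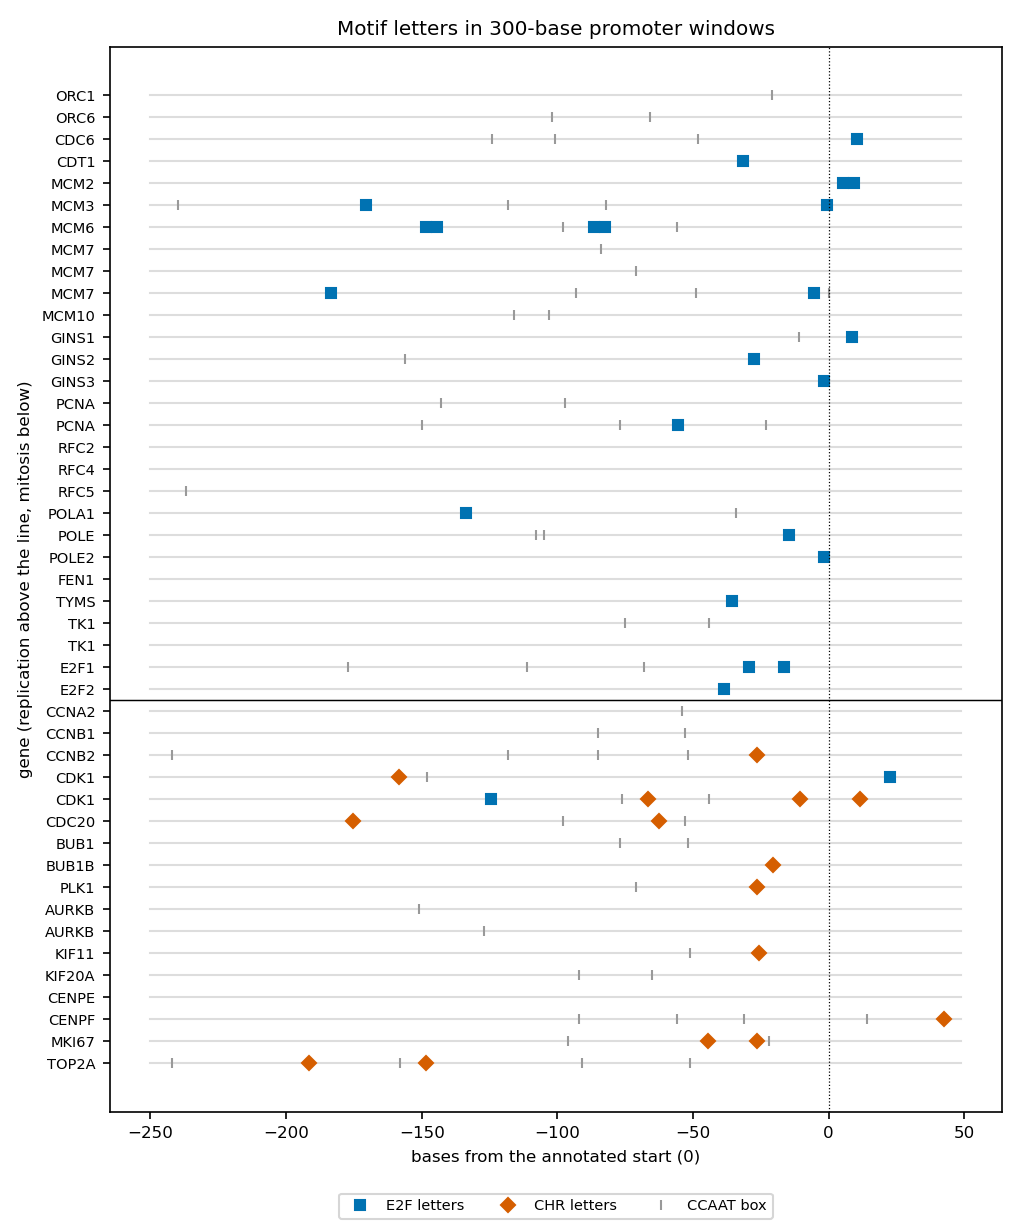
Position of motif letters in the promoter windows of 39 members, in bases from the annotated start (x axis), with 1 line per window and more than 1 for genes with several starts. E2F letters (squares) lie in replication promoters, apart from CDK1, and CHR letters (diamonds) lie in mitosis promoters only.

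The fold changes of members with and without these letters can be set side by side. Comparing S2-028 with S2-007, the median log2 fold change was 0.27 over the 16 replication members with an E2F motif and 0.40 over the 8 without it. In S2-020 compared with S2-007 the medians were 0.33 and 0.30, and in S2-028 compared with S2-020 they were -0.14 and 0.07. For the 9 mitosis members with a CHR motif and the 6 without it, they were -0.07 and 0.07, then 0.03 and 0.21, and then -0.02 and -0.32. These medians describe the members and were not tested. Members without a motif are those without its exact letters, and they may hold variant sites.

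Over the 45 members together, S2-007 had the lowest level. The summed level of the members was 6633 ± 249 CPM in S2-007, 8272 ± 243 CPM in S2-020 and 7655 ± 201 CPM in S2-028 (SD, n = 3), and the libraries of S2-007 lay below those of both other lines. The 27 replication members summed to 2868 ± 154 CPM in S2-007, 3733 ± 59.2 CPM in S2-020 and 3748 ± 246 CPM in S2-028. The 18 mitosis members summed to 3764 ± 96.4, 4538 ± 184 and 3907 ± 68.9 CPM in the same order. The replication sum was therefore higher in both other lines than in S2-007, whereas the mitosis sum of S2-028 lay nearer to that of S2-007 than to that of S2-020. The largest terms of the mitosis sum were MKI67 (1015 CPM in S2-007, 994 in S2-020 and 920.4 in S2-028) and TOP2A (531, 553 and 722). Such sums weigh these genes most. The summed level of the replication members divided by that of the mitosis members was 0.737, 0.768 and 0.780 in the libraries of S2-007, 0.810, 0.812 and 0.847 in S2-020 and 0.994, 0.873 and 1.01 in S2-028.

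Gene by gene, S2-007 had the lowest mean for 25 members, and for 20 of these its 3 libraries lay below all 6 others. S2-020 had the highest mean for 25 members, 18 of them with no overlap, and S2-028 for 16 members, 10 with no overlap. S2-007 was highest for 4 members, all of mitosis, and for none of them without overlap. Of the 27 replication members, S2-007 was the lowest line for 18 and the highest for 0. These orders were not counted over all genes. For single pairs of lines, 43.3% (S2-028 and S2-007), 48.5% (S2-020 and S2-007) and 48.9% (S2-028 and S2-020) of all genes tested did not overlap.

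**Figure D2:**
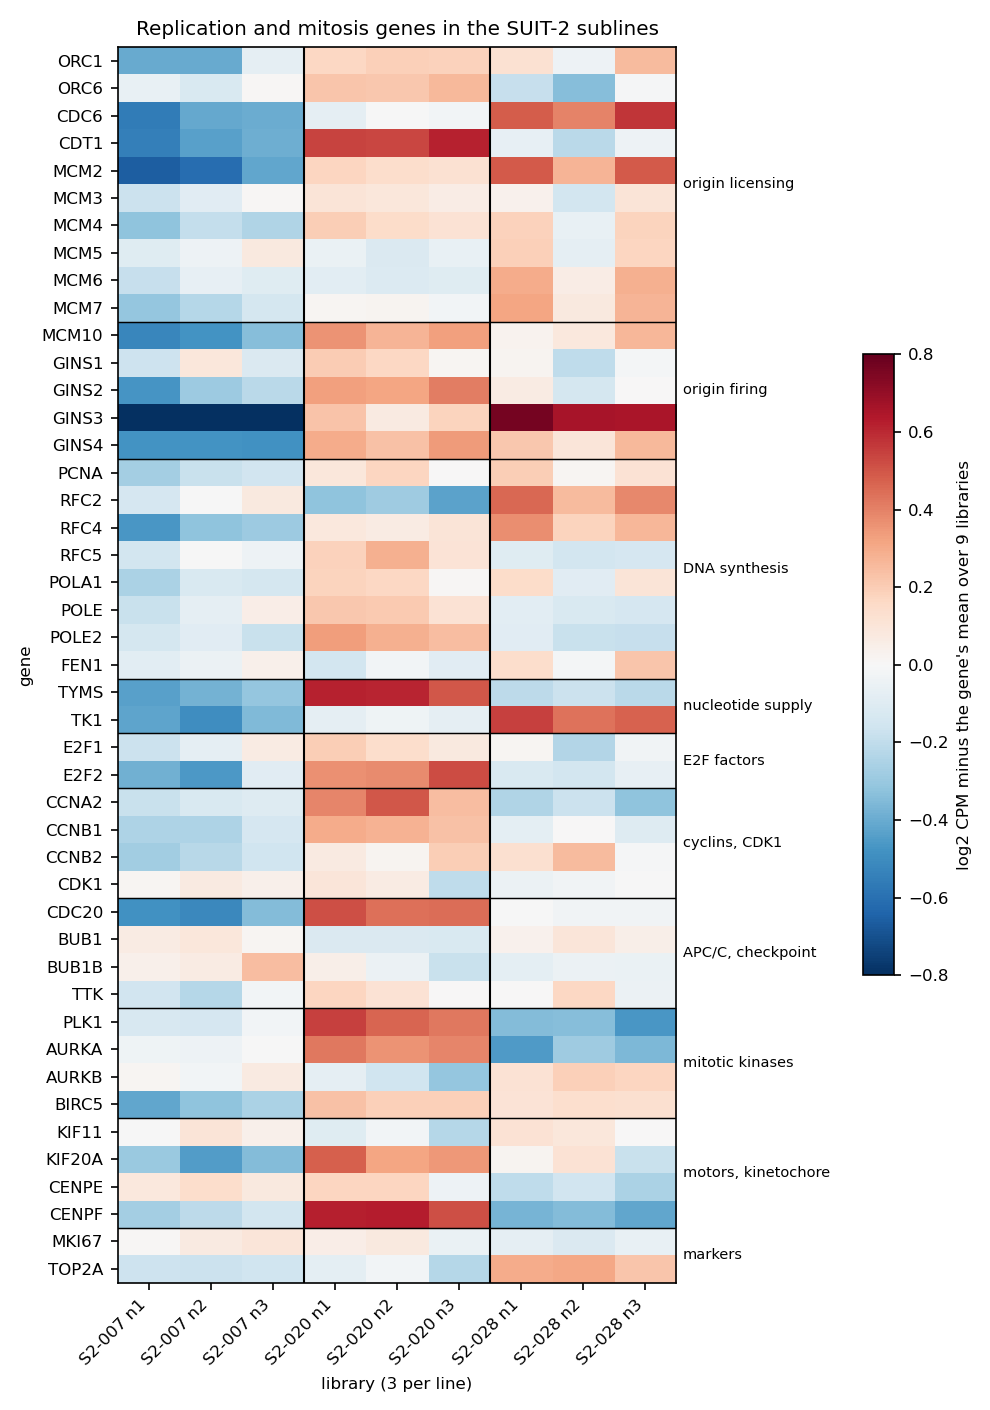
Heatmap of log2 CPM minus the mean of the gene over the 9 libraries, with 1 row per gene grouped by role and 1 column per library. Colours stop at the ends of the scale, which GINS3 in S2-007 passes. Most replication rows are blue in S2-007, while PLK1, AURKA and CENPF are red in S2-020 and blue in S2-028.

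In S2-028 compared with S2-007, 6 of the 45 members were DEGs (13.3%), all of them higher in S2-028 and all of replication, namely CDC6, MCM2, GINS3, GINS4, RFC4 and TK1. Among the 26371 genes tested, 10.2% were DEGs higher in S2-028 and 8.19% were DEGs lower in it. The share of members called higher was thus near the background, and none was called lower by edgeR or DESeq2, with 6 lower at an unadjusted p under 0.05. By adjusted p alone, 23 members were higher and 6 were lower in S2-028, which is 51.1% and 13.3% of them, against 17.7% and 16.1% of all genes tested. Libraries of the 2 lines were fully separated for 31 members (68.9%), against 43.3% of all genes. The median log2 fold change was 0.18 over the members and 0.00 over all genes. All 17 replication members that passed the adjusted p were higher in S2-028, whereas the mitosis members split into 6 higher and 6 lower. The median log2 fold change was 0.32 over the replication members and 0.01 over the mitosis members, the latter with a sign that changed when single libraries were left out. None of the 18 mitosis members was a DEG by edgeR or by DESeq2, and 14 of them had an unadjusted p under 0.05. MCM10 lay just outside the fold threshold at 0.58, and RFC4 was the called member nearest to it at 0.64.

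In S2-020 compared with S2-007, 11 members were DEGs (24.4%), all higher in S2-020. They were 8 of replication, CDT1, MCM2, MCM10, GINS2, GINS3, GINS4, TYMS and E2F2, and 3 of mitosis, CDC20, KIF20A and CENPF. The background was 9.57% of 26657 genes called higher and 12.1% called lower. By adjusted p, 32 members (71.1%) were higher and 5 (11.1%) were lower in S2-020, against 20.1% and 20.1% of all genes. The 5 lower members were RFC2, BUB1, BUB1B, AURKB and KIF11. No overlap between the lines was seen for 36 members (80%), against 48.5% of all genes. The median over the members was 0.29, beside -0.05 over all genes. Replication members passing the adjusted p were 22 higher and 1 lower (median over the group 0.33), and mitosis members 10 higher and 4 lower (median 0.25). Neither edgeR nor DESeq2 called a member lower, and 5 were lower at an unadjusted p under 0.05. PLK1 at 0.54 and BIRC5 at 0.50 lay nearest outside the threshold.

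In S2-028 compared with S2-020, 7 members were DEGs (15.6%). RFC2 was higher in S2-028, and CDT1, TYMS, CCNA2, PLK1, AURKA and CENPF were lower. Of the 26031 genes tested, 12.1% were called higher and 10.1% lower. By adjusted p, 14 members (31.1%) were higher and 18 (40.0%) lower, against 19.7% and 20.7% of all genes, and 33 members (73.3%) did not overlap, against 48.9%. The median was -0.08 over the members and 0.02 over all genes. Scaling by total count alone moved these medians to 0.0033 and 0.11. By adjusted p, replication members divided into 10 higher and 10 lower, and mitosis members into 4 higher and 8 lower. The share of higher calls also depended on the scaling. With upper quartile factors 3 members were called higher and 5 lower, and with total count alone 4 higher and 5 lower, as GINS3 and TK1, and with total count also CDC6, passed the fold threshold and CCNA2 no longer did. None of the 18 mitosis members was called higher by edgeR or DESeq2, while 4 were higher at an unadjusted p under 0.05.

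**Figure D3:**
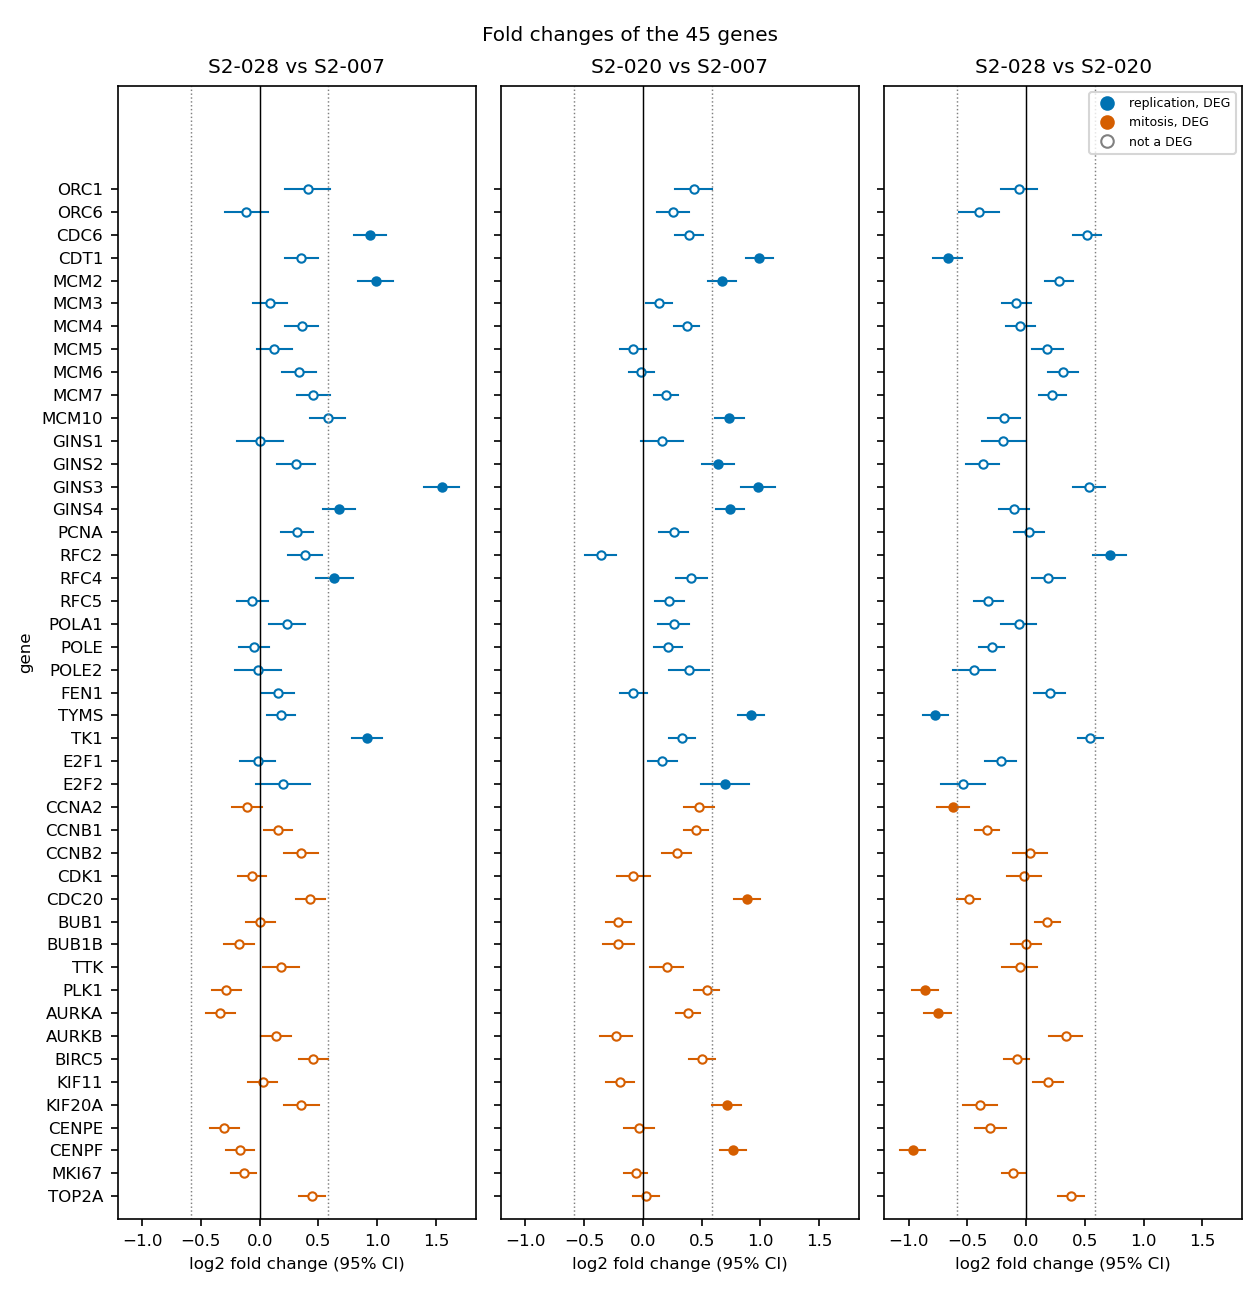
Log2 fold change (points) with its 95% confidence interval (lines) for each of the 45 genes in the 3 comparisons. Dotted lines mark the fold threshold and filled points are DEGs, which are all higher in the left and middle panels.

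Across the comparisons, 18 members were a DEG at least once and 27 never were. The adjusted p was under 0.05 in all 3 comparisons for 17 members and in none for 2, GINS1 and CDK1. Such counts across comparisons were not made over all genes. In the single comparisons, in the order above, 4858 of 26371, 5769 of 26657 and 5788 of 26031 genes tested were DEGs. By adjusted p alone, 8927, 10708 and 10517 of them passed.

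Among the licensing genes, MCM2, CDC6 and CDT1 were DEGs. MCM2, a subunit of the replicative helicase, is on chromosome 3 (127598411 to 127622436). Its level was 182, 188 and 215 CPM in S2-007, 324, 317 and 313 in S2-020, and 404, 348 and 405 in S2-028. The 3 lines formed 3 separate ranges, with S2-007 lowest and S2-028 highest. The log2 fold change was 0.99 ± 0.0708 (SE) in S2-028 compared with S2-007 (adjusted p = 2.98e-10) and 0.67 ± 0.0562 in S2-020 compared with S2-007 (adjusted p = 5.32e-09). S2-028 was above S2-020 by 0.28 (adjusted p = 0.000441), which was under the fold threshold. Antisense transcripts cover 32.4% of its exon bases, and how the counting treated strand is not given in the sources used here, so reads of such pairs cannot be told apart with certainty.

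Against S2-007, the other MCM subunits differed less than MCM2 and not all alike. In S2-028 compared with S2-007 the log2 fold change was 0.46 for MCM7, 0.36 for MCM4 and 0.34 for MCM6, which passed the adjusted p, and 0.13 for MCM5 and 0.09 for MCM3, which did not. In S2-020 compared with S2-007 it was 0.37 for MCM4, 0.20 for MCM7 and 0.14 for MCM3, and neither MCM6 (-0.01, 95% interval -0.12 to 0.10) nor MCM5 (-0.09, -0.20 to 0.02) passed. Summed over the subunits, the level of MCM2-7 was 1381 ± 74.4 CPM in S2-007, 1689 ± 27.7 CPM in S2-020 and 1852 ± 163 CPM in S2-028. Per kilobase of transcript, MCM7 was the highest subunit in each line, at 136, 159 and 186 CPM per kb. The lowest was MCM6 in S2-007 (40.5) and S2-020 (41.1), and MCM5 in S2-028 (50.1), beside which MCM6 stood at 51.05.

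CDC6 and CDT1, the loaders of the helicase, had opposite orders in S2-020 and S2-028. CDC6, an ATPase on chromosome 17 (40287879 to 40304657), had levels of 71.7, 79.7 and 80.5 CPM in S2-007, 100.5, 106 and 104 in S2-020, and 148, 139 and 157 in S2-028. Every library of S2-028 was above every library of S2-020, and these were above S2-007. Its log2 fold change in S2-028 compared with S2-007 was 0.94 ± 0.0654 (adjusted p = 1.77e-10). It was 0.39 ± 0.0564 in S2-020 compared with S2-007 and 0.52 ± 0.0566 in S2-028 compared with S2-020, both past the adjusted p and under the fold threshold.

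For CDT1, on chromosome 16 (88803789 to 88809258), the libraries gave 77.4, 83.8 and 86.5 CPM in S2-007, 165, 164 and 174 in S2-020, and 108, 97.4 and 110.2 in S2-028. Here S2-020 was the highest line, and the ranges of the 3 lines did not overlap. This gene differed by 0.99 ± 0.0543 in S2-020 compared with S2-007 (adjusted p = 8.76e-12) and -0.67 ± 0.0577 in S2-028 compared with S2-020 (adjusted p = 1.15e-08). Against S2-007, S2-028 was higher by 0.35 (adjusted p = 0.000192), which was no DEG. Per kilobase, CDC6 and CDT1 stood at 16.9 and 30.99 CPM per kb in S2-007, at 22.7 and 62.9 in S2-020, and at 32.4 and 39.5 in S2-028.

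Both ORC subunits stayed under the fold threshold. ORC1, the largest subunit of the complex, was higher than in S2-007 by 0.41 in S2-028 and by 0.43 in S2-020. ORC6 was highest in S2-020, with 0.26 against S2-007 (adjusted p = 0.00287), and S2-028 was lower than S2-020 (log2 fold change -0.40, adjusted p = 0.000401).

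**Figure D4:**
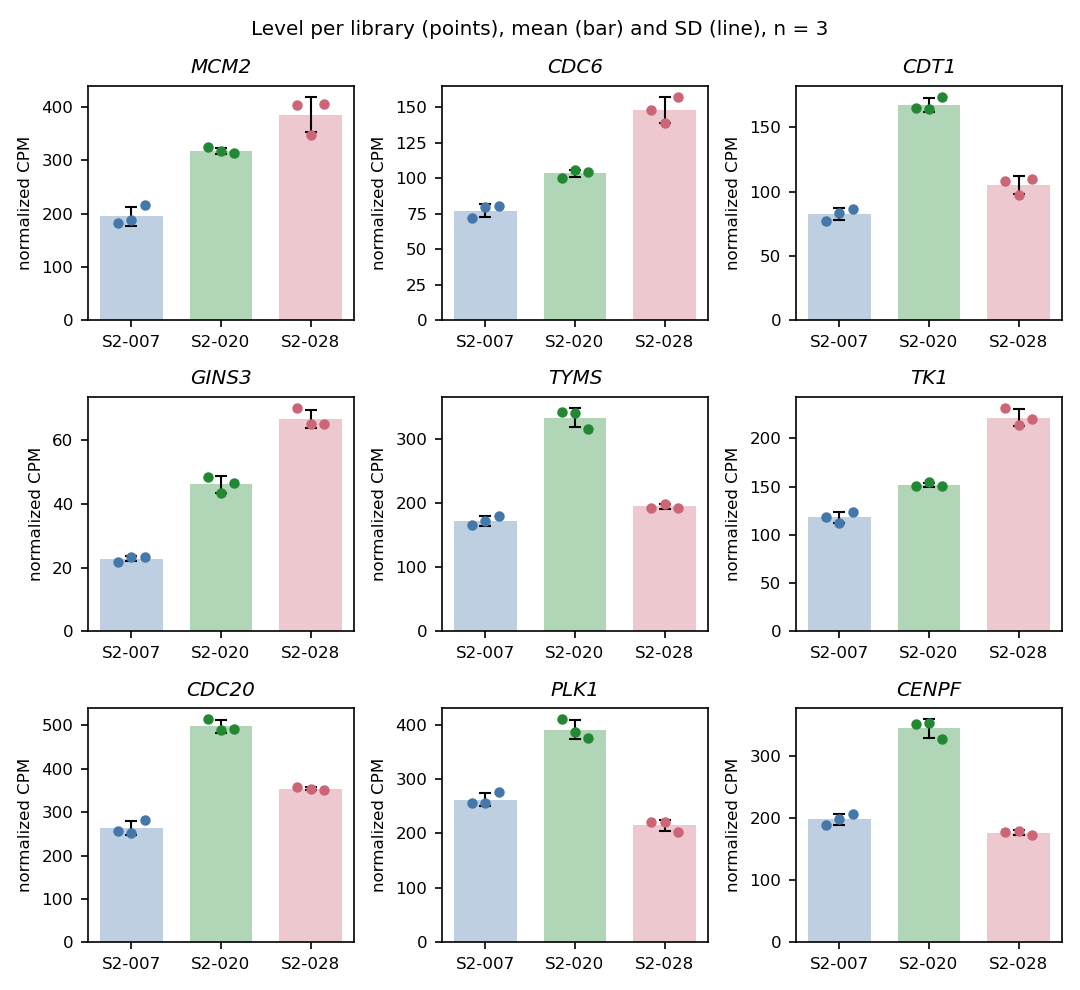
Normalized CPM of 9 members in each library (points), with the mean of each line (bars) and the SD of its 3 libraries (black lines). MCM2, CDC6, GINS3 and TK1 are highest in S2-028, whereas CDT1, TYMS, CDC20, PLK1 and CENPF are highest in S2-020.

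GINS3, a subunit of the GINS complex on chromosome 16 (58392471 to 58406147), had the largest difference of the 45 members. Its level was 21.8, 23.4 and 23.2 CPM in S2-007, 48.3, 43.3 and 46.5 in S2-020, and 69.9, 65.03 and 64.8 in S2-028. The mean of S2-028 was 66.6 ± 2.88 CPM and that of S2-007 22.8 ± 0.845 CPM (SD, n = 3), with S2-020 between them at 46.02 ± 2.54 CPM and no overlap between any of the lines. On the log2 scale the fold change was 1.55 ± 0.0720 in S2-028 (adjusted p = 2.57e-13) and 0.98 ± 0.0700 in S2-020 (adjusted p = 4.87e-10), each against S2-007. S2-028 was above S2-020 by 0.53 (adjusted p = 1.29e-06). An antisense transcript covers 14.4% of its exon bases.

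The GINS complex holds 1 copy of each of its 4 subunits, and their mRNAs did not change alike. GINS4 gave 46.9, 46.8 and 46.6 CPM in S2-007, 80.1, 76.8 and 82.4 in S2-020, and 75.6, 69.7 and 77.9 in S2-028. S2-007 was lowest without overlap, and the ranges of S2-020 and S2-028 overlapped. Against S2-007, GINS4 had a log2 fold change of 0.67 ± 0.0662 in S2-028 and 0.74 ± 0.0564 in S2-020 (adjusted p = 4.02e-08 and 1.37e-09). Antisense transcripts cover 33.4% of the exon bases of GINS4, on chromosome 8.

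GINS2 was measured at 40.6, 46.1 and 48.5 CPM in S2-007, 70.6, 70.01 and 74.7 in S2-020, and 59.01, 51.02 and 56.5 in S2-028. It was highest in S2-020, with S2-028 between the other lines and no overlap. The difference from S2-007 was 0.64 ± 0.0647 in S2-020 (adjusted p = 8.11e-08), a DEG, and 0.30 ± 0.0773 in S2-028, which was not. GINS1 passed the test in no comparison, with 95% intervals of -0.20 to 0.20 for S2-028 and -0.01 to 0.34 for S2-020, each against S2-007. Per kilobase, GINS1 was the lowest subunit in every line, at 7.40 CPM per kb in S2-007, 8.46 in S2-020 and 7.39 in S2-028. The highest was GINS2 in S2-007 (17.1) and S2-020 (27.3), and GINS3 in S2-028 (30.3).

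MCM10, which joins the helicase to polymerase alpha, was measured at 47.2, 48.7 and 53.6 CPM in S2-007, 86.9, 81.9 and 85.3 in S2-020, and 69.2, 71.8 and 81.7 in S2-028. S2-007 was lowest and S2-020 highest, and no lines overlapped. Against S2-007 the log2 fold change was 0.74 ± 0.0590 in S2-020 (adjusted p = 2.91e-09) and 0.58 ± 0.0717 in S2-028. The latter value lay just under the fold threshold and passed it when replicate 3 of S2-007, or replicate 1 or 2 of S2-028, was left out, and with no filter on low counts.

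Among the 8 genes of DNA synthesis, only RFC subunits were DEGs. RFC2, a clamp loader subunit on chromosome 7 (74231502 to 74254399), gave 61.6, 67.4 and 71.4 CPM in S2-007, 53.9, 55.5 and 50.2 in S2-020, and 92.7, 80.3 and 87.99 in S2-028. S2-028 was highest and S2-020 lowest, with no overlap between lines. It was the 1 member called higher in S2-028 than in S2-020, by 0.71 ± 0.0661 (adjusted p = 3.29e-08), and S2-020 was lower than S2-007 (log2 fold change -0.36, adjusted p = 9.05e-05). Of the 31-base words of its transcript, 13.0% are shared with other genes. RFC4, another subunit, gave 34.6, 38.2 and 39.1 CPM in S2-007, 50.7, 50.04 and 51.3 in S2-020, and 61.9, 54.03 and 57.4 in S2-028. Its 3 lines did not overlap either, and S2-007 was the lowest. The difference between S2-028 and S2-007 was 0.64 ± 0.0744 (adjusted p = 5.27e-07), which fell under the fold threshold, at 0.58, without replicate 1 of S2-028. RFC5 was highest in S2-020, by 0.23 over S2-007 (adjusted p = 0.00455).

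The clamp PCNA was higher than in S2-007 by 0.32 in S2-028 and by 0.26 in S2-020 (adjusted p = 0.000494 and 0.000879). POLA1, the catalytic subunit of polymerase alpha, was higher by 0.23 and 0.26. POLE and POLE2, the catalytic and the second subunit of polymerase epsilon, were higher in S2-020 than in S2-007 by 0.21 and 0.39, and S2-028 differed from S2-007 by -0.05 and -0.01, neither past the test. S2-028 was lower than S2-020 for both, with log2 fold changes of -0.29 and -0.44 (adjusted p = 9.26e-05 and 0.000278). FEN1, which removes the flaps of Okazaki fragments, differed between S2-028 and S2-020 by 0.20 (adjusted p = 0.0131).

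The nucleotide supply genes TYMS and TK1 were high in different lines. TYMS encodes thymidylate synthase, which makes thymidylate de novo, and TK1 encodes thymidine kinase, which salvages it. TYMS, on chromosome 18 (657653 to 673578), was measured at 165, 172 and 180.4 CPM in S2-007, 343, 341 and 316 in S2-020, and 193, 199 and 193 in S2-028. Every library of S2-020 was far above those of both other lines, which lay close together without overlap. The log2 fold change was 0.92 ± 0.0523 in S2-020 compared with S2-007 (adjusted p = 1.55e-11) and -0.77 ± 0.0503 in S2-028 compared with S2-020 (adjusted p = 1.87e-10). S2-028 was above S2-007 by only 0.18 (adjusted p = 0.0177). ENOSF1 and TYMSOS lie antisense to 66.5% of the exon bases of TYMS, under the same limit.

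TK1, on chromosome 17 (78174079 to 78187204), gave 118, 112 and 124 CPM in S2-007, 151, 154 and 151 in S2-020, and 231, 214 and 219.7 in S2-028. Here S2-028 was highest, and no lines overlapped. Its log2 fold change was 0.91 ± 0.0611 against S2-007 (adjusted p = 1.02e-10) and 0.55 ± 0.0510 against S2-020 (adjusted p = 3.59e-08), the latter just under the fold threshold. Per kilobase, TK1 and TYMS stood at 82.6 and 107 CPM per kb in S2-007, at 106 and 206 in S2-020, and at 155 and 121 in S2-028. TK1 was thus the higher of the pair in S2-028, and TYMS in the other lines.

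Of the E2F factors, E2F2 was the lower one per kilobase in all lines. It gave 12.4, 11.8 and 15.2 CPM in S2-007, 20.9, 21.1 and 23.3 in S2-020, and 14.9, 14.6 and 15.5 in S2-028. S2-020 was above both other lines, whose ranges overlapped. The log2 fold change in S2-020 compared with S2-007 was 0.70 ± 0.0981 (adjusted p = 6.72e-06), and S2-028 lay -0.54 from S2-020 on the log2 scale, just short of the fold threshold. E2F1 was higher in S2-020 than in S2-007 by 0.17 (adjusted p = 0.0293) and differed by -0.02 between S2-028 and S2-007 (95% interval -0.17 to 0.13).

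Among the mitotic cyclins and CDK1, the changes were under the threshold against S2-007. CCNA2, cyclin A2, on chromosome 4 (121816444 to 121823883), was measured at 93.2, 96.98 and 98.3 CPM in S2-007, 138, 149 and 125 in S2-020, and 89.3, 93.5 and 84.2 in S2-028. S2-020 was highest without overlap. It was called lower in S2-028 than in S2-020, with a log2 fold change of -0.62 ± 0.0652 (adjusted p = 1.71e-07). This call was lost when replicate 2 of S2-020 or replicate 3 of S2-028 was left out, and with upper quartile factors or total count scaling. CCNB1, cyclin B1, differed from S2-007 by 0.45 in S2-020 and 0.15 in S2-028, and CCNB2 by 0.29 and 0.35. CDK1, the kinase these cyclins activate, passed the test in no comparison, with log2 fold changes between -0.08 and -0.02.

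Of the genes of the anaphase-promoting complex and the spindle checkpoint, CDC20 alone was a DEG. CDC20 activates that complex and lies on chromosome 1 (43358981 to 43363203). Its libraries gave 257, 251 and 283 CPM in S2-007, 515, 488 and 491 in S2-020, and 359, 353 and 352 in S2-028. The 3 lines did not overlap, with S2-020 highest and S2-007 lowest. The difference from S2-007 was 0.89 ± 0.0515 in S2-020 (adjusted p = 2.09e-11) and 0.43 ± 0.0577 in S2-028 (adjusted p = 3.28e-06), and 25.5% of the 31-base words of its transcript are shared, most with the pseudogene CDC20P1. The checkpoint kinase BUB1 was lower in S2-020 than in S2-007 (-0.21, adjusted p = 0.00258), as was BUB1B (-0.21, adjusted p = 0.0141). TTK was higher in S2-020 by 0.20 (adjusted p = 0.0203).

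PLK1 and AURKA, kinases of centrosomes and mitotic entry, shared an order in which S2-020 was highest and S2-028 lowest. PLK1, on chromosome 16 (23678889 to 23690367), gave 256, 255 and 276 CPM in S2-007, 409.8, 387 and 375 in S2-020, and 220.4, 221 and 203 in S2-028. No lines overlapped. The mean was 391 ± 17.6 CPM in S2-020 and 215 ± 10.1 CPM in S2-028 (SD, n = 3), and the log2 fold change in S2-028 compared with S2-020 was -0.86 ± 0.0528 (adjusted p = 7.68e-11). Against S2-007, S2-020 was higher by 0.54 ± 0.0513 and S2-028 differed by -0.29 ± 0.0588, both past the adjusted p and under the fold threshold. Without replicate 3 of S2-007 the former passed it.

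AURKA, on chromosome 20 (56369390 to 56392215), was measured at 187, 186 and 191 CPM in S2-007, 256, 246 and 251 in S2-020, and 139.8, 157 and 149 in S2-028. Its lines did not overlap. The fold change on the log2 scale was -0.75 ± 0.0539 in S2-028 compared with S2-020 (adjusted p = 7.74e-10), 0.38 ± 0.0486 in S2-020 compared with S2-007, and -0.34 ± 0.0589 in S2-028 compared with S2-007. Its transcript shares 22.5% of its 31-base words, most with RAB3GAP2. AURKB, the kinase of the chromosomal passenger complex, had the opposite order of means, with S2-028 above S2-020 by 0.34 (adjusted p = 0.000352). BIRC5, survivin, a partner of AURKB in that complex, did not follow it and was higher than in S2-007 by 0.46 in S2-028 and 0.50 in S2-020 (adjusted p = 2.4e-06 and 1.85e-07).

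CENPF, a large kinetochore protein gene on chromosome 1 (214603195 to 214664571), showed the largest difference between S2-028 and S2-020. It gave 189, 198 and 207 CPM in S2-007, 352, 353 and 327 in S2-020, and 177, 179.8 and 172 in S2-028. S2-020 was far above the other lines, and S2-028 was below S2-007 with no overlap. The log2 fold change was -0.96 ± 0.0507 in S2-028 compared with S2-020 (adjusted p = 7.56e-12), 0.77 ± 0.0518 in S2-020 compared with S2-007 (adjusted p = 2.14e-10) and -0.16 ± 0.0571 in S2-028 compared with S2-007 (adjusted p = 0.0297). CENPE, a kinetochore motor, differed by -0.30 between S2-028 and S2-007 (adjusted p = 0.000301) and by -0.03 between S2-020 and S2-007 (adjusted p = 0.743).

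KIF20A, a kinesin of the central spindle, was measured at 90.9, 81.9 and 88.1 CPM in S2-007, 156, 139 and 142 in S2-020, and 113, 121 and 98.7 in S2-028. S2-020 was highest and S2-007 lowest, with no overlap. It was a DEG in S2-020 compared with S2-007, at 0.71 ± 0.0599 (adjusted p = 5.8e-09), and differed by 0.36 ± 0.0726 in S2-028 compared with S2-007 (adjusted p = 0.00048). KIF11, the kinesin that separates the spindle poles, was lower in S2-020 than in S2-007 (-0.19, adjusted p = 0.011).

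The common proliferation marker MKI67, which encodes the antigen Ki-67, had its highest mean in S2-007. The mean was 1015 ± 30.9 CPM in S2-007, 994 ± 48.7 CPM in S2-020 and 920.4 ± 18.3 CPM in S2-028, and S2-028 differed from S2-007 by -0.14 ± 0.0511 (adjusted p = 0.0427). TOP2A, the type II topoisomerase of dividing cells, on chromosome 17 (40388525 to 40417896), gave 530.4, 529.9 and 534 CPM in S2-007, 564, 586 and 509 in S2-020, and 733, 738 and 695 in S2-028. S2-028 was above both other lines, whose ranges overlapped. The difference was 0.45 ± 0.0532 against S2-007 (adjusted p = 7.07e-07) and 0.39 ± 0.0526 against S2-020 (adjusted p = 5.25e-06), under the fold threshold in both. These markers gave log2 fold changes of opposite sign in S2-028 compared with S2-007.

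Libraries of 1 line varied together in some groups. In replicate 2 of S2-028, all 6 MCM2-7 subunits lay below the mean of the line, with a median of -0.15 on the log2 scale, and so did 26 of the 27 replication members, while only 3 of the 18 mitosis members did. In replicate 1 of S2-007, 41 of the 45 members lay below the mean of the line (median -0.06), and in replicate 3 only 7 did. In replicate 3 of S2-020, 17 of the 18 mitosis members lay below the mean of the line. These shifts were smaller than the fold threshold. Without replicate 2 of S2-028, the log2 fold change of MCM2 in S2-028 compared with S2-007 was 1.05, beside 0.99 with it.

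The members were also set beside their neighbours on the chromosome, the 50 nearest tested genes. The part of the neighbourhood in these differences was not tested. Across the 45 members, the log2 fold change of the gene and the median of its neighbours had a Pearson correlation of 0.54 in S2-028 compared with S2-007, 0.52 in S2-020 compared with S2-007 and 0.57 in S2-028 compared with S2-020. For the 18 mitosis members it was 0.82 in the last comparison. These are descriptions across genes that share libraries, and some members share neighbours.

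The neighbours of CENPF had a median log2 fold change of -0.51 in S2-028 compared with S2-020, with 34 of 50 lower, beside -0.96 for CENPF itself. Those of CDT1 had -0.72, with 45 of 50 lower, beside -0.67 for CDT1. For AURKB the neighbours gave 0.40 and the gene 0.34, and for TOP2A 0.33 and 0.39. In these 4 places the gene and the median of its surroundings had the same sign in that comparison. GINS3 stood apart from its surroundings, with neighbours at 0.11 in S2-028 and 0.22 in S2-020, each against S2-007, beside 1.55 and 0.98. TYMS did too, at -0.09 in S2-020 compared with S2-007 beside 0.92, as did CDC20 at 0.02 beside 0.89. For MCM2 the neighbours gave 0.34 in S2-028 compared with S2-007, with 40 of 50 higher, and 0.06 in S2-020 compared with S2-007.

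**Figure D5:**
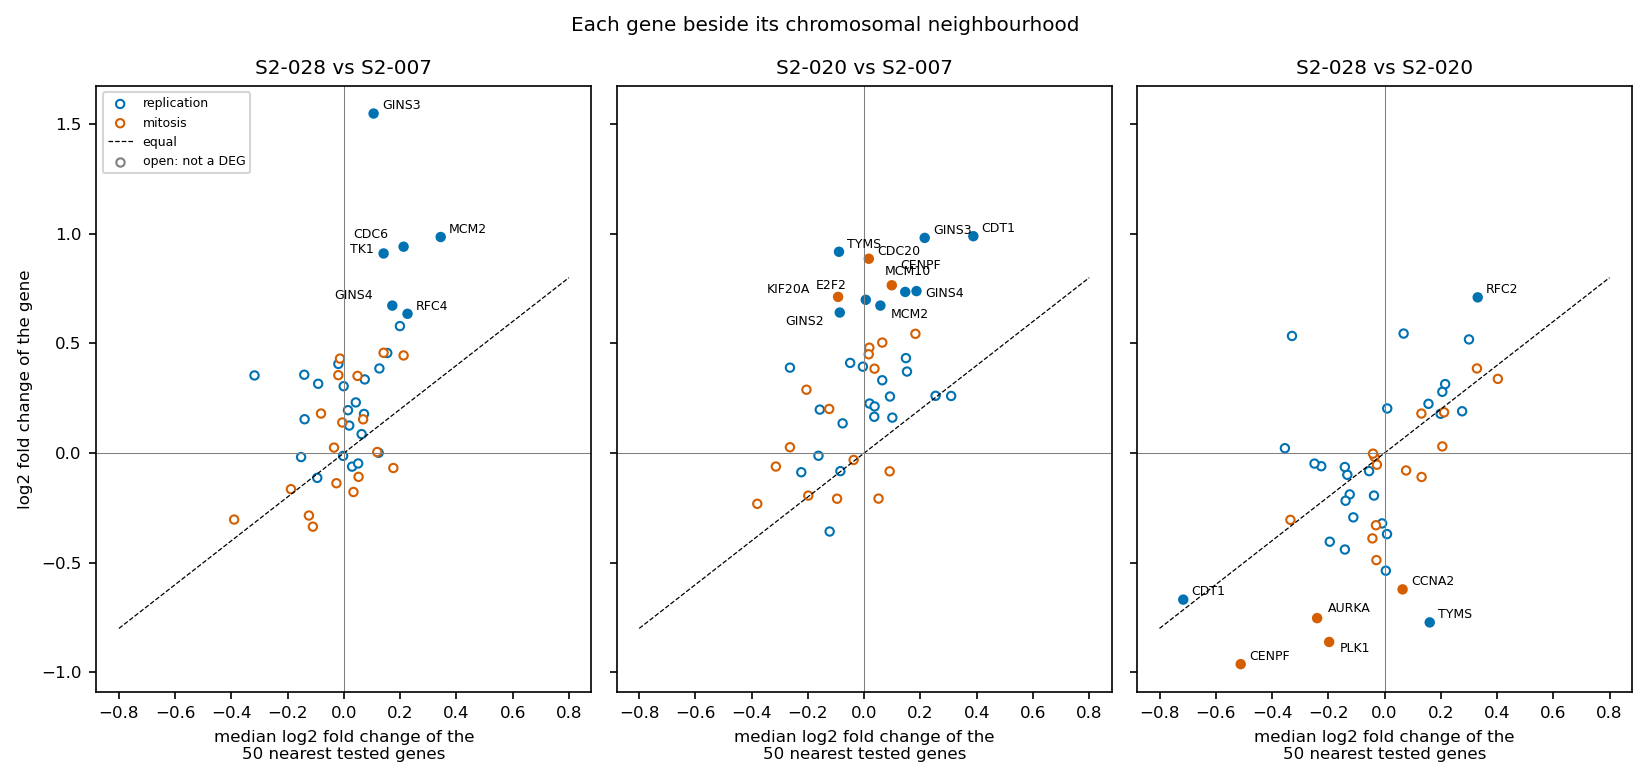
Log2 fold change of each member (y axis) against the median log2 fold change of its 50 nearest tested genes (x axis) in the 3 comparisons. Filled and named points are DEGs and the dashed line marks equal values. CDT1 and CENPF lie low on both axes in the right panel, whereas GINS3 in the left panel is far above its neighbours.

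Other genes of the same pathways were described from lists of genes outside the 45. These lists were chosen with earlier results of these data known, so their shares beside those of all genes are descriptions only. Their genes were not set beside chromosomal neighbours, so it was not examined whether called genes lie near one another. Of 45 further replication genes, 6 were called higher and 1 lower in S2-028 compared with S2-007, among them PRIM1 (1.57), the primase, TIMELESS (1.11), a fork protection factor, CDC45 (0.98), the partner of GINS, and POLD4 (-0.99), a polymerase delta subunit. These are 13.3% and 2.22% of the list, against 10.2% and 8.19% of all genes tested. In S2-020 compared with S2-007, 3 were called higher and 2 lower, including TIMELESS (1.35), PRIM1 (1.26) and POLD4 (-1.51). In S2-028 compared with S2-020, 5 were higher and 2 lower, led by CDC45 (1.43). Of the list, 6.67% and 4.44% were thus called in the former comparison, against 9.57% and 12.1% of all genes, and 11.1% and 4.44% in the latter, against 12.1% and 10.1%. By adjusted p, 23 of these 45 genes were higher and 3 lower in S2-028 compared with S2-007, which is 51.1% and 6.67% of them, against 17.7% and 16.1% of all genes. Of the 11 other genes of nucleotide supply, 0 were called higher and 1 (9.09%) lower in S2-028 compared with S2-007. The shares of all genes there were 10.2% and 8.19%. In S2-020 compared with S2-007, 0 were called. In S2-028 compared with S2-020, 1 was higher and 1 lower (9.09% each), against 12.1% and 10.1%. These shares were near or below those of all genes. The calls were DCK, deoxycytidine kinase, lower in S2-028 against both S2-007 (-0.68) and S2-020 (-0.70), and SHMT1, higher in S2-028 than in S2-020 (0.83).

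Of 75 further mitosis genes, 5 were called higher and 1 lower in S2-028 compared with S2-007, and 8 higher and 0 lower in S2-020 compared with S2-007. In S2-028 compared with S2-020, 1 was higher and 11 were lower. The shares called higher and lower were 6.67% and 1.33%, against 10.2% and 8.19% of all genes, then 10.7% and 0.00%, against 9.57% and 12.1%, and then 1.33% and 14.7%, against 12.1% and 10.1%. The calls in S2-020 included UBE2S (1.08), PTTG1 (1.03), which is securin, and MYBL2 (0.71), which encodes B-MYB. MYBL2 was also called lower in S2-028 than in S2-020 (-1.02), with KIF4A (-0.71), CKAP2 (-0.80) and CENPN (-0.60). By adjusted p, 44 of the 75 were higher and 10 lower in S2-020 compared with S2-007 (58.7% and 13.3%, against 20.1% and 20.1% of all genes), and 12 higher and 35 lower in S2-028 compared with S2-020 (16% and 46.7%, against 19.7% and 20.7%).

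Of 26 genes that control the passage from G1 to S phase, 4 were called higher and 3 lower in S2-028 compared with S2-007, 9 higher and 3 lower in S2-020 compared with S2-007, and 3 higher and 7 lower in S2-028 compared with S2-020, where 25 were tested. The shares called higher and lower were 15.4% and 11.5%, against 10.2% and 8.19% of all genes, then 34.6% and 11.5%, against 9.57% and 12.1%, and then 12% and 28%, against 12.1% and 10.1%. CDK4, a kinase that acts on RB1, was higher than in S2-007 by 1.89 in S2-028 and 1.83 in S2-020, whereas CDKN1A, the inhibitor p21, was lower (-1.42 and -2.90). CDK6 was called higher in S2-028 against both S2-007 (1.48) and S2-020 (1.36). CDKN2C, an inhibitor of CDK4 and CDK6, was called lower in S2-028 against both (-1.88 and -2.62). The D-type cyclins CCND1 (0.84) and CCND3 (1.52) were called higher in S2-020 than in S2-007, and CCND3 was called lower in S2-028 than in S2-020 (-1.15). TFDP1, the dimer partner of E2F factors, was also lower there (-1.09). The list was chosen with earlier results of these data known, so these shares only describe it.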

How the data were processed

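Poly(A)-selected, strand-specific RNA-seq libraries of 9 cell samples were sequenced on a NovaSeq 6000. The authors trimmed reads with Trimmomatic 0.39 and aligned them with BWA 0.7.17 to GRCh38.p14; the submitters' processing notes also name SAMtools 1.12 and edgeR 3.16.5. The counting tool, and its treatment of strand and of reads matching several genes, are not given in the sources used here. The authors deposited raw counts per gene for each library. The normalized signal that the authors deposited beside them, in 18 columns, was not used. Of the table, 2 lines named no gene and were left out.

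Counts were analysed with edgeR 4.0.16 in R 4.3.3 (limma 3.58.1). Each pair of lines was fitted on its 6 libraries with TMM factors, a filter on low counts (filterByExpr, minimum 10 in a library and 15 in all) and the quasi-likelihood F test, with Benjamini-Hochberg adjustment over all genes tested; all 45 members passed the filter in every comparison. The SE is the fold change divided by the square root of F. CPM were scaled by TMM over the 9 libraries, with a prior count of 2 on the log2 scale. CPM per kb used the length of the MANE transcript (RefSeq). Coordinates and promoters are those of RefSeq for GRCh38.p14, and 42539 of the 42717 gene identifiers matched its gene table.

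Values in every library are given for the DEGs of each comparison, at most 12, and for the member with the largest fold change in each role group. Genes outside the 45 are named only if called, at most 4 per list and comparison, smallest adjusted p first. The members and lists were chosen with earlier results of these data known, so their shares beside those of all genes are descriptions. The labels do not say whether equal replicate numbers pair libraries of different lines. Between such libraries, deviations from the line means correlated between -0.0226 and 0.00626 over the genes tested. This cannot exclude a pairing, since counting noise adds to these deviations and each line has 3 libraries. On simulated counts over 26402, 26725 and 26094 genes, 96.1%, 93.8% and 93.3% of genes with a log2 fold change of 1 were recovered in S2-028 compared with S2-007, S2-020 compared with S2-007 and S2-028 compared with S2-020. In the same order, 6, 12 and 10 unchanged genes were called. The simulation changed few genes, none of them at low counts, and gave all genes the same spread, so recovery in the data may differ. Alternatives were other scalings and filters, the likelihood ratio test, DESeq2 1.42.0, 1 fit over 9 libraries, a test against a 1.5-fold change, a replicate block and leaving out each library.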

Additional observations from a re-analysis of the deposited data

How the results depend on the processing

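The DEG counts of 6, 11 and 7 members (S2-028 compared with S2-007, S2-020 compared with S2-007, S2-028 compared with S2-020) stayed within 1.5 times under every alternative run, apart from S2-028 compared with S2-020 under the test against a 1.5-fold change, a stricter null, which called 4, 8 and 4 members as DEGs and by adjusted p. It dropped RFC4 and GINS4, then E2F2, GINS2 and MCM2, then CCNA2, CDT1 and RFC2. Total count scaling gave a member median of 0.24 in S2-020 compared with S2-007 and 0.0033 in S2-028 compared with S2-020, where upper quartile factors gave -0.027; the median of all genes moved with it, to -0.11 and 0.11. Leaving out 1 library gave medians of 0.15 to 0.23, 0.28 to 0.34 and -0.11 to -0.037, DEG counts of 6 to 7, 11 to 12 and 6 to 8, and adjusted p counts of 24 to 27, 33 to 36 and 27 to 31. Median log2 fold changes that changed sign between alternatives included that of the mitosis members in S2-028 compared with S2-007. In S2-020 compared with S2-007 they included those of the checkpoint genes and of the markers MKI67 and TOP2A. In S2-028 compared with S2-020 they included those of the synthesis genes, the checkpoint genes, all replication members and all 45 members. The replication median there went from -0.064 to 0.018 with total count scaling and to 0.023 without replicate 2 of S2-028. That of all 45 members went from -0.079 to 0.0033 with total count scaling. With a replicate block the DEG counts were 6, 11 and 7 and the adjusted p counts 29, 36 and 32. The labels do not say whether equal replicate numbers share anything beyond the number. Over single members, 2136 of 2160 values kept their side of the threshold, 13 lost the call and 11 gained it. Of the members past the adjusted p in the main fit, 0 changed direction. Some members not past it did, such as E2F1 in S2-028 compared with S2-007 (-0.073 to 0.050).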

Other observations

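The median log2 fold change of the firing genes was 0.58 in S2-028 and 0.74 in S2-020, each against S2-007, and that of the nucleotide supply genes was 0.54 and 0.63. Without replicate 3 of S2-028 the order in S2-028 turned, with 0.51 for firing and 0.55 for nucleotide supply. In S2-028 compared with S2-020 the median of the mitotic kinases and passenger complex was -0.42, although AURKB in that group was at 0.34.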
